A study of Mus musculus with 2 samples.

Results

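The genes of ion channel subunits for sodium, potassium and calcium were compared between the white matter of CD47 KO mice and that of WT control mice. They were taken as all genes whose platform symbol starts with Kcn, Cacna, Cacnb or Cacng, or with Scn, a number and a or b. The rule leaves out 5 such genes, Scn8a, Kcna1, Kcna2, Kcne2 and Kcnj8. This gave 114 of the 18193 genes with a symbol on the array. Of these, 68 had a signal above the median of all signals of both arrays, 106.4, in at least 1 array, as had 12473 of all genes, and they are called measured below. This median served as a floor: a signal under it was set to it, and a ratio in which 1 array was under the floor is a bound, written as "at least". Each gene was read from its brightest probe set.

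The white matter was that of the optic nerve and tract, taken from males. The CD47 KO pool (CD47 null) was from mice of 12 to 15 weeks of age and the WT pool from mice of 13 to 15 weeks. The text of the series gives 4 CD47 KO and 5 WT animals per pool and the labelling protocol 5 and 4. The methods of the study side with the text of the series. The CD47 KO mice lack CD47, the ligand of the microglial receptor SIRPα, in all cells, and no other allele or treatment is given in the labels. With 1 array per genotype no test was possible: the values below describe these 2 pools, without a replicate check, and 1 array each limits their precision.

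Voltage-gated sodium channels start the action potential, potassium channels end it and set the resting potential, and calcium channels couple it to transmitter release and to gene expression. The pore is formed by large α subunits or by an assembly of smaller ones, and auxiliary subunits alter the gating and the surface level of the pore. Axons of the optic nerve belong to retinal ganglion cells, whose cell bodies lie in the retina, so that most channel mRNA of these neurons is made outside the tissue. Glial cells express their own channels, above all inward rectifiers and tandem-pore potassium channels that take up potassium released by axons.

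The state of the arrays was checked first. The brightest probe set of the targeted gene, Cd47, had a signal of 1346 in CD47 KO and 3928 in WT white matter, and 3 of its probe sets kept 34.3% to 39.5% of the WT signal. Whether these lie within the deleted sequence was not examined, so they check the label only in part. White matter markers were bright in both pools: the 5 measured oligodendrocyte markers had log2 ratios from 0.10 to 0.15. All 9 measured neuronal markers of 10 were lower in CD47 KO. Their log2 ratios ranged from -1.32 to -0.66 with a median of -1.0, and their summed signal was 8408.5 in CD47 KO and 16301 in WT; Slc17a7 was under the floor in both arrays. Microglial markers had a median of 0.53 over 6 genes. All 4 hypothalamic markers were above the floor in both arrays and lower in CD47 KO. Avp had 22363.5 in CD47 KO and 24981.9 in WT, and Pmch had 130 in CD47 KO and 894 in WT. How much tissue from beside the optic nerve and tract each pool held was not tested. Fewer cells of a type, less RNA per cell and an unequal dissection of the 2 pools cannot be told apart in bulk tissue. The part of the neuronal markers in the channel values below was not tested.

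Most measured channel genes had a lower signal in CD47 KO white matter, and none was over 2-fold higher. Of the 68, 50 (73.5%) had a log2 ratio of CD47 KO over WT below 0, against 53.2% of all genes above the floor. The median was -0.35, against -0.02 over all genes. Scn1a, Kcnc2, Scn2b, Kcne4 and Scn9a, 5 genes in all, were over 2-fold lower, as were 0.818% of all genes. For 2-fold higher the count was 0, against 1.21% of all genes. Over 1.5-fold lower were 19 members, against 4.68% of all genes, and 0 were over 1.5-fold higher, against 4.02%. The plot of signals by array shows these 19 genes beside the members with the brightest probe sets.

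**Figure D1:**
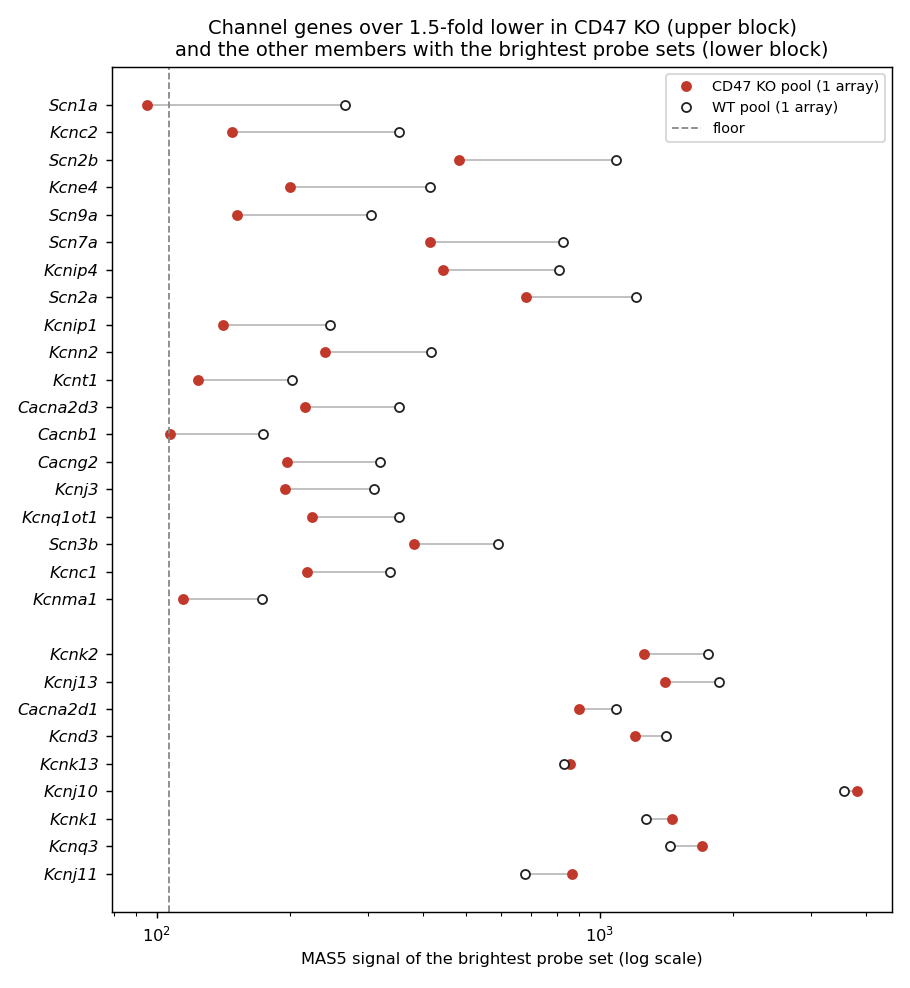
MAS5 signal (horizontal, log scale) of the 19 channel genes over 1.5-fold lower in CD47 KO (upper block) and of the 9 other members among the 10 with the brightest probe sets (lower block), with 1 point for the CD47 KO array (red) and 1 for the WT array (open); the dashed line is the floor at 106.4. Scn1a is the sole gene of the upper block with its CD47 KO signal under the floor, and Kcnk13, Kcnj10, Kcnk1, Kcnq3 and Kcnj11 of the lower block are higher in CD47 KO.

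A gene that passes the floor only through the WT array must have a ratio below 0. This was so for 8 of the 10 members with a bound, and the other 2, Cacna1f and Kcnk7, passed only through the CD47 KO array. Of the 58 members with both signals over the floor 42 were below 0, against 52.6% of the 11592 such genes of the series, and their median log2 ratio was -0.38, against -0.01. Lower values were seen among bright and dim members, but of the 10 with the brightest probe sets 5 were above 0. Of 34 members with a mean signal above 250.1, 23 were below 0, against 51.8% of all genes in that range. Their median was -0.39 (all genes in that range, -0.01). Of 24 dimmer ones with both signals above the floor 19 were below 0, against 1138 of 2015 of all such genes. Their median was -0.37 (all such genes, -0.06). The members just inside the floor were Kcnk7 at 107.3, Kcnj6 at 107.5 and Cacna1f at 109.6 in their higher array, and those just outside were Kcna4 at 105.2, Cacna1h at 104.2 and Kcnj4 at 103.0.

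**Figure D2:**
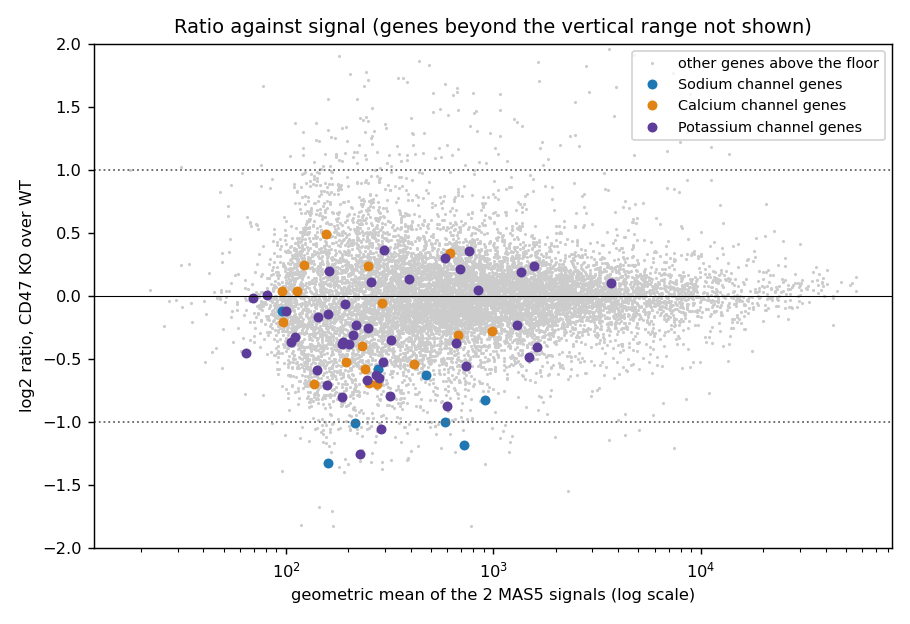
Log2 ratio of CD47 KO over WT (vertical) against the geometric mean of both MAS5 signals (horizontal, log scale), for the 68 measured channel genes by ion (coloured) and the other genes above the floor (grey); dotted lines mark 2-fold. The 8 sodium channel genes (blue) lie below the line of equal signal, Scn9a by a probe set that its second one does not match. Channel genes lie below that line among dim and bright genes, but of the 10 with the brightest probe sets 5 lie above it.

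Sodium channel genes had a lower median than those of calcium and potassium. Of 10 on the array 8 were measured. By the brightest probe set all 6 with both signals above the floor were below 0, against 52.6% of all such genes, though Scn9a was not by its second one; Scn1a and Scn4b passed only through the WT array and so could only be below 0. Of the 8, 6 were over 1.5-fold lower and 3 over 2-fold lower, and the median log2 ratio was -0.91. For the 17 measured calcium channel genes the median was -0.28 and for the 43 of potassium -0.33. These differences between ions rest on different genes in the same 2 pools and were not tested.

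Among the α subunits, which form the sodium pore, Scn2a encodes the channel of the axon initial segment and of unmyelinated axons. It had a signal of 682 in CD47 KO and 1208 in WT (1.77-fold lower). Its other probe sets above the floor gave 268 in CD47 KO and 541 in WT, and 80.6 in CD47 KO, under the floor, and 146 in WT. All of them were lower in CD47 KO. Scn1a, the main α subunit of fast-spiking inhibitory neurons, had 95.2 in CD47 KO, under the floor, and 266 in WT. It was at least 2.50-fold lower, but this rests on 1 of its 3 probe sets, the others being under the floor in both arrays, and with the floor at the 60th percentile its log2 ratio is a bound of -0.51. Scn3a, an α subunit known mostly from the embryonic brain, had 228 in CD47 KO and 340 in WT (log2 ratio -0.58).

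Scn7a and Scn9a are less typical α subunits of the brain. Scn7a encodes a sodium-level sensor that does not open on voltage, and is known from glial cells of the sensory circumventricular organs. It had 414 in CD47 KO and 828 in WT, a log2 ratio of -1.0 that lies just short of 2-fold, and its other probe set had 191 in CD47 KO and 701 in WT (log2 ratio -1.88). Scn9a, known from pain-sensing neurons, had 152 in CD47 KO and 305 in WT by a probe set whose suffix marks possible cross-hybridisation (2.01-fold lower). Its second probe set had 142 in CD47 KO and 141 in WT. The probe sets of Scn9a therefore disagreed, and without the marked one its log2 ratio was 0.016.

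The β subunits bind the α subunit and act as adhesion molecules. Scn2b had 481 in CD47 KO and 1090 in WT (2.27-fold lower), and 124 in CD47 KO and 237 in WT by its other probe set (log2 ratio -0.94). Scn3b had 381 in CD47 KO and 589 in WT (1.55-fold lower). Scn4b, which supports resurgent current, passed the floor only in WT, with 79.3 in CD47 KO and 115 in WT (at least 1.08-fold lower). Scn10a and Scn11a, known from sensory ganglia, were under the floor in both arrays.

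The 5 measured α subunit genes lie near each other on chromosome 2. In the annotation of assembly GRCm38.p6 their order among protein-coding genes is Scn3a, Scn2a, Csrnp3, Galnt3, Ttc21b, Scn1a, Scn9a and Scn7a. The 3 genes between them that are no channels had log2 ratios of -0.48 (Csrnp3), 0.35 (Galnt3) and 0.05 (Ttc21b). Of these genes between the channel genes, Csrnp3 was lower and Galnt3 and Ttc21b were not. The part of gene position in these values was not tested.

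The promoters of the 5 sodium channel genes with the lowest log2 ratios by the brightest probe set are shown, so that their start regions can be set side by side; that of Scn9a is not lower by its second probe set. Each runs from 250 bases before to 50 bases after the annotated start (RefSeq, GRCm38.p6, 5′ to 3′ on the strand of the gene). Capitals mark the GC box GGGCGG and the TATA box TATAAA, searched on both strands.
Scn2a promoter, chr2:65668436-65668735, plus strand: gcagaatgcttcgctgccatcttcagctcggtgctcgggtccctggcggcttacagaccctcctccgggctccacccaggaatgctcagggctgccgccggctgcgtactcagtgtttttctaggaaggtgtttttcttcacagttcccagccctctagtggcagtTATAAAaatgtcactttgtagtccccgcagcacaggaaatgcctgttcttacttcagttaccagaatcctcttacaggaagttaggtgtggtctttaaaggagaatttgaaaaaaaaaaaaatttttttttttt
Scn1a promoter, chr2:66440788-66441087, minus strand: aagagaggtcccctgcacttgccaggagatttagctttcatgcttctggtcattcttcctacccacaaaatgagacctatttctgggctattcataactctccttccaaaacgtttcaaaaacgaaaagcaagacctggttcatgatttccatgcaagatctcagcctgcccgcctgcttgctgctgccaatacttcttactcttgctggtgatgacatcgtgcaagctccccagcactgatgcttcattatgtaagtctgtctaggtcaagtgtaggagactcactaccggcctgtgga
Scn9a promoter, chr2:66634913-66635212, minus strand: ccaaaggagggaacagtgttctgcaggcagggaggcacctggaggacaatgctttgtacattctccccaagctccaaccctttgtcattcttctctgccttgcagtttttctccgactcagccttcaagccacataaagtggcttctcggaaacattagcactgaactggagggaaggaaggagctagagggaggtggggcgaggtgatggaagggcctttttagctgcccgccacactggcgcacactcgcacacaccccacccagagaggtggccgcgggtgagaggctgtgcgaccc
Scn7a promoter, chr2:66784861-66785160, minus strand: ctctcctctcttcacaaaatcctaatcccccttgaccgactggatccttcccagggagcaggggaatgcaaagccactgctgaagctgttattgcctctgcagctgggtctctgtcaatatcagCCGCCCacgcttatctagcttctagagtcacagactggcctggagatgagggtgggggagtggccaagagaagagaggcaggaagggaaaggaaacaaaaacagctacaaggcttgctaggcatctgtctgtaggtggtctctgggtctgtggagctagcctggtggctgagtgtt
Scn2b promoter, chr9:45117626-45117925, plus strand: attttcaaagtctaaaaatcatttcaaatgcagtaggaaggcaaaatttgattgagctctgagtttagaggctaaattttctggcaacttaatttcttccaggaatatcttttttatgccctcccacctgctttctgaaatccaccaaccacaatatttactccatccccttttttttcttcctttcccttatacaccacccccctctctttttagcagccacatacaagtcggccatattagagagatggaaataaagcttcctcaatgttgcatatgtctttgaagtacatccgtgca

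Of 7 promoters listed for the measured sodium channel genes, 1 held the GC box (Scn7a) and 1 the TATA box (Scn2a, which has 2 listed starts and is shown for the one with the motif). Of all 32851 RefSeq promoters 35.7% held the GC box and 13.6% the TATA box, and over 80 promoters of 53 measured channel genes 41.2% and 6.25%. The binding site of REST, a repressor of neuronal genes, was searched as its cores CAGCACC and GGACAG with 2 bases between them (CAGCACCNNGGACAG, both strands). It was in 0 of the 80 windows and in 12 of all 32851 (0.0365%). No match says only that these letters are not in the window.

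**Figure D3:**
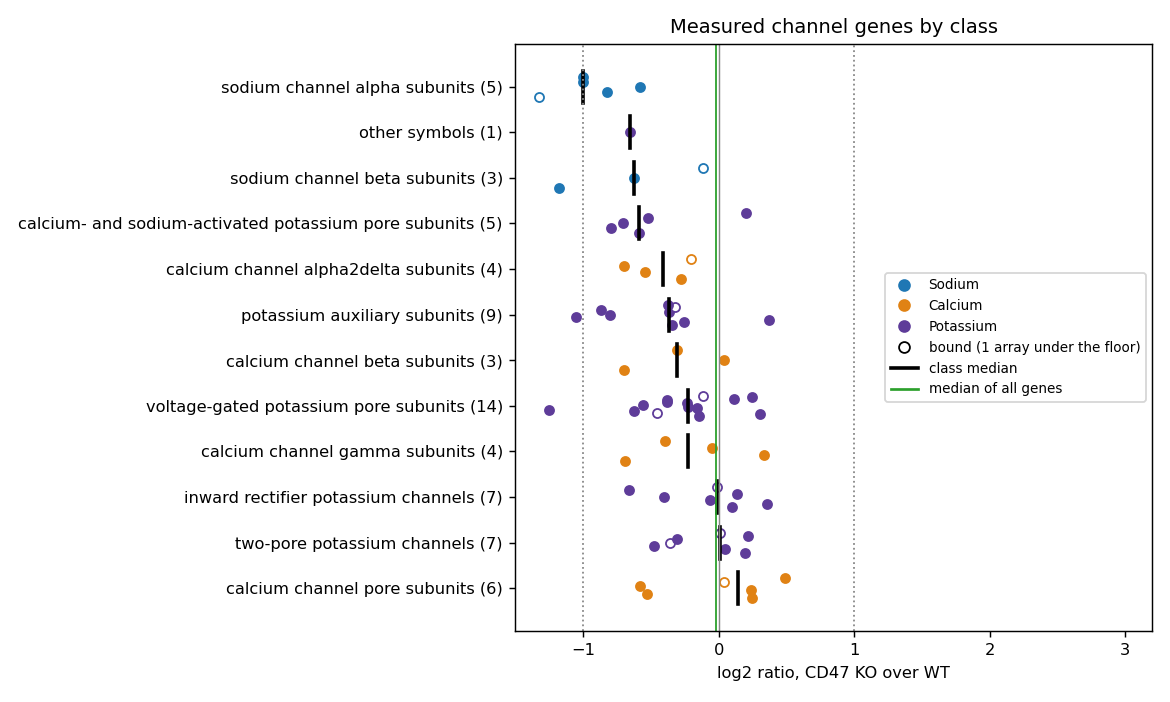
Log2 ratios, CD47 KO over WT, on the horizontal axis for the 68 measured channel genes by class, with the number of genes in brackets, the class median (black bar), the median of all genes (green line) and 2-fold (dotted); open points are bounds. The median of sodium channel α subunits is -1.0. That of calcium channel pore subunits is 0.14 here, but -0.32 under a floor at the 60th percentile. It is -0.24 without probe sets with the suffix _a_at, _s_at or _x_at.

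Calcium channel pore subunits went both ways. Of the channels of transmitter release, Cacna1b, the N-type pore, had 162 in CD47 KO and 234 in WT (log2 ratio -0.53). Its other probe sets above the floor gave -0.23 and, as a bound that could only be below 0, -1.26. Cacna1a, the P/Q-type pore, had 133 in CD47 KO and 112 in WT (0.25). Both signals of Cacna1a lay near the floor, and it had no other probe set above the floor. The R-type pore gene Cacna1e had 197 in CD47 KO and 295 in WT (-0.58). The L-type pore gene Cacna1d had 270 in CD47 KO and 229.9 in WT (0.23), and the T-type pore gene Cacna1g 185 in CD47 KO and 132 in WT (0.49), the highest ratio of the channel genes with both signals above the floor. Cacna1f, known from the retina, passed the floor only in CD47 KO, with 110 in CD47 KO and 83.0 in WT (a log2 ratio of at least 0.04). The median of the 6 genes was 0.14 but was -0.32 with a floor at the 60th percentile. It was -0.24 without probe sets with the suffix _a_at, _s_at or _x_at, so that no direction can be given for the class.

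Auxiliary calcium channel genes were mostly lower. The α2δ subunits carry the pore to the cell surface and include the target of gabapentin. The 3 with both signals above the floor were below 0, as were 52.6% of all such genes. Cacna2d3 had 217 in CD47 KO and 352 in WT (1.62-fold lower), Cacna2d2 had a log2 ratio of -0.54, and Cacna2d1 had 898 in CD47 KO and 1090 in WT. Cacna2d4 passed only through the WT array, with 76.5 in CD47 KO and 123 in WT. The β subunits bind the pore inside the cell. Cacnb1 had 107 in CD47 KO, just above the floor, and 174 in WT (1.62-fold lower), Cacnb2 had 115 in CD47 KO and 112 in WT, and Cacnb4 had 608 in CD47 KO and 753 in WT. The 3 probe sets of Cacnb4 disagreed, with log2 ratios of -0.74, -0.31 and 0.43.

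Several γ subunits act on AMPA-type glutamate receptors rather than on calcium channels. Cacng2 (stargazin), the best known of them, had 197 in CD47 KO and 319 in WT (1.62-fold lower), and Cacng7 had 203 in CD47 KO and 266 in WT (log2 ratio -0.40). Cacng5 had 284 in CD47 KO and 294 in WT. Cacng4 had 695 in CD47 KO and 549.6 in WT (log2 ratio 0.34), but its other probe set had a log2 ratio of -0.27.

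Voltage-gated potassium pore subunits had a median of -0.23 over 14 measured genes. Of the 12 with both signals above the floor 9 were below 0, against 52.6% of all such genes. The Kcnc genes encode the fast channels that let interneurons fire at high rates. Kcnc2 had 148 in CD47 KO and 353 in WT (2.39-fold lower), on a single probe set, and with the floor at the 60th percentile it was no longer over 2-fold lower. Kcnc1 had 218 in CD47 KO and 337 in WT (1.54-fold lower), with log2 ratios of -0.34 and 0.06 by its other probe sets, and Kcnc4 had 135 in CD47 KO and 151 in WT.

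The Kcnd genes carry the A-type current of dendrites and cell bodies. Kcnd2 had 609 in CD47 KO and 894 in WT (1.47-fold lower), and its 3 probe sets were all lower, from -0.58 to -0.36. Kcnd3 had 1203 in CD47 KO and 1412 in WT, and Kcnd1 had 199.9 in CD47 KO and 234 in WT. Kcnq3, a subunit of the M current that is held at axon initial segments and nodes, went the other way, with 1707 in CD47 KO and 1443 in WT (1.18-fold higher) and a log2 ratio of 0.36 by its other probe set. Kcnq5 was a bound at -0.12. Kcna6, of the Kcna family, had 646 in CD47 KO and 524 in WT (1.23-fold higher), Kcna5 had 151 in CD47 KO and 167 in WT, and Kcna7 passed the floor only in WT, with 28.0 in CD47 KO and 146 in WT. In the Kcnh family Kcnh1 and Kcnh2 had log2 ratios of -0.38 each. Kcnh3 was at 0.12 by its brightest probe set and at -0.33 and -0.43 by the others.

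Auxiliary potassium channel subunits were below 0 for 7 of 8 genes with both signals above the floor, against 52.6% of all such genes. The KChIP proteins bind Kcnd channels and raise their current. Kcnip4 had 443 in CD47 KO and 811 in WT (1.83-fold lower), with 214 in CD47 KO and 386 in WT by its second probe set, and Kcnip1 had 141 in CD47 KO and 246 in WT (1.75-fold lower), with 135 in CD47 KO and 225 in WT by its second one. Kcnip3 had 165 in CD47 KO and 213 in WT. The probe sets of Kcnip1 thus gave nearly one value, and so did the brighter pair of Kcnip4. Kcne4, whose protein dampens Kcna and Kcnq channels, had 199.6 in CD47 KO and 414 in WT (2.08-fold lower), on a single probe set. Kcnab1 and Kcnab2, the cytoplasmic partners of Kcna channels, had log2 ratios of -0.35 and -0.25. Kcne1l was the sole one above 0, with 339 in CD47 KO and 262 in WT (1.29-fold higher).

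Channels opened by calcium or sodium were grouped by symbol with Kcnu1, which is not opened by these ions. Of the 5 genes all but Kcnu1 were lower by the brightest probe set, against 52.6% of all genes with both signals above the floor. Kcnn2, which carries the after-hyperpolarisation, had 240 in CD47 KO and 416 in WT (1.73-fold lower), on its single probe set. Kcnt2, opened by sodium, had 244 in CD47 KO and 350.2 in WT (1.44-fold lower). Its relative Kcnt1 had 124 in CD47 KO and 202 in WT by the brightest probe set (1.63-fold lower), but the third of its probe sets had 149 in CD47 KO and 103 in WT. Kcnma1, the large-conductance pore, had 115 in CD47 KO and 173 in WT (1.51-fold lower). Its log2 ratio was 0.07 by its other probe set above the floor, when the brightest one, with the suffix _a_at, was left out. Its neuronal β subunit gene Kcnmb4 had 582 in CD47 KO and 755 in WT (1.30-fold lower). Kcnu1, known from sperm, had 173 in CD47 KO and 150.2 in WT.

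Inward rectifiers and tandem-pore channels were spread around 0, with medians of -0.01 over 7 genes and 0.01 over 7 genes. The median of inward rectifiers was above 0 under 4 other settings. That of tandem-pore channels was -0.13 without probe sets with the suffix _a_at, _s_at or _x_at, so that neither class has a direction. Kcnj10 (Kir4.1), the channel by which astrocytes and oligodendrocytes take up potassium, had 3811 in CD47 KO and 3553 in WT (1.07-fold higher). Kcnj16, its partner subunit, had 410.1 in CD47 KO and 374 in WT (1.10-fold higher), with the same log2 ratio of 0.13 by both probe sets. The neuronal Kcnj3, which G proteins open, had 195 in CD47 KO and 309 in WT (1.58-fold lower). Further probe sets of Kcnj3 had 86.3 in CD47 KO and 148 in WT, and 87.7 in CD47 KO and 134 in WT. These passed the floor only through the WT array and so could only be below 0. Kcnj11, the pore of the channel closed by ATP, had 868 in CD47 KO and 677 in WT (1.28-fold higher). Kcnj12 was at -0.06.

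Kcnk1 and Kcnk2 encode channels that astrocytes use. Kcnk1 had 1456 in CD47 KO and 1274 in WT (1.14-fold higher), and Kcnk2, which neurons express too, 1259 in CD47 KO and 1757 in WT (1.40-fold lower). Kcnk13, the main tandem-pore channel of resting microglia, had 857 in CD47 KO and 829 in WT (1.03-fold higher), and Kcnk6 had 746 in CD47 KO and 641 in WT (1.16-fold higher). Kcnk7 passed the floor only in CD47 KO, with 107 in CD47 KO and 61.0 in WT (a log2 ratio of at least 0.01). Beside these, the microglial markers Cx3cr1 and Aif1 were 2.55-fold and 1.94-fold higher and Tmem119 was 1.43-fold lower. Kcna3, Kcnn4 and Kcnj2, channels also known from microglia, were under the floor in both arrays. Kcnk5 and Kcnk3 had log2 ratios of -0.31 and, as a bound, -0.36.

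Kcnj13 (Kir7.1), a channel of the choroid plexus, had 1403 in CD47 KO and 1855 in WT (1.32-fold lower). The choroid plexus marker Ttr was 1.61-fold lower and Kl 1.42-fold lower, Clic6 was at 0.05, Folr1 was under the floor in both arrays, and the summed signal of the 3 measured markers of 4 was 904 in CD47 KO and 1319 in WT. The part of choroid plexus tissue in the value of Kcnj13 was not tested.

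Grouped by the cells that are known to use them, neuronal and glial channels had different medians. Of 19 genes on the array listed for the excitability of axons and cell bodies, 17 were measured, with a median of -0.58. Above the floor in both arrays were 15, of which 14 (all but Kcnq3) were below 0, against 52.6% of all such genes; Scn1a and Scn4b passed only through the WT array. The 4 channels of astrocytes and oligodendrocytes had a median of 0.12, with 1 below 0 (Kcnk2), and the 2 measured microglial ones a median of 0.13. These lists were chosen with earlier results of these data known, and the difference between them was not tested. Among the markers of striatum the median was -1.12 over 3 genes, of which Drd1 passed only through the WT array. Drd1 could thus only be below 0, and the 2 above the floor in both arrays had a median of -0.95. The medians of the marker lists were -1.0 for neurons and -0.72 for hypothalamus (4 genes). Those of non-neuronal cells lay on both sides of 0: -0.40 for endothelium and mural cells (5 genes, 4 of them below 0), -0.51 for choroid plexus (3 genes), 0.11 for oligodendrocytes, 0.46 for their precursors (3 genes), 0.14 for astrocytes and 0.53 for microglia. The part of these cells in the channel values was not tested.

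**Figure D4:**
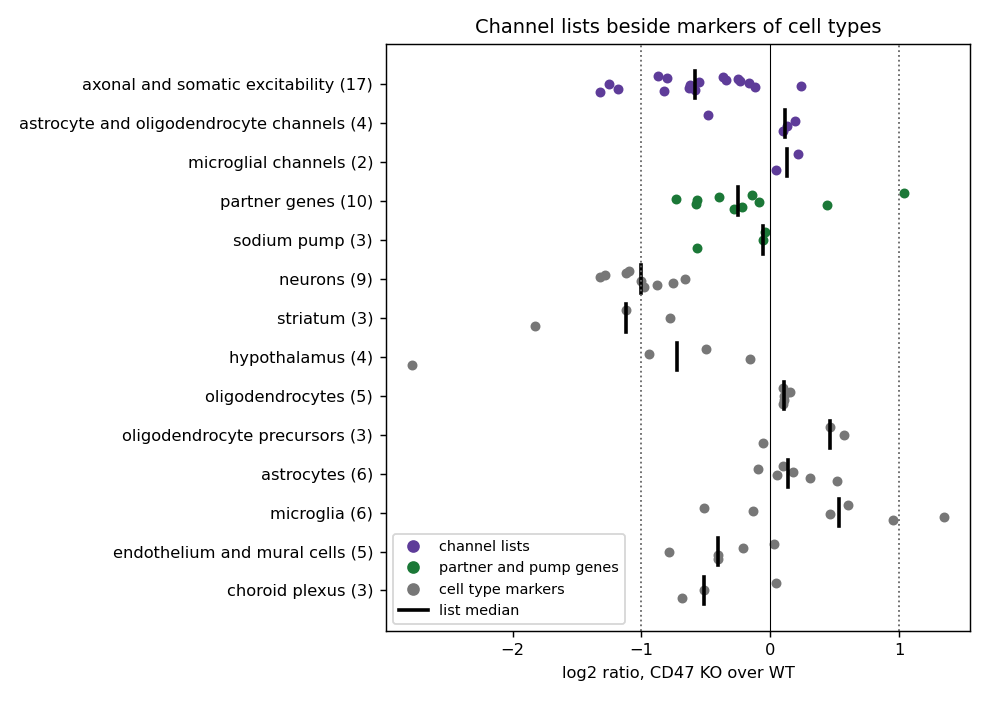
Log2 ratios, CD47 KO over WT, on the horizontal axis for channel lists (purple), partner and pump genes (green) and markers of cell types (grey), with the number of measured genes in brackets and the list median (black bar); dotted lines mark 2-fold. The median is -0.58 for channels of excitability and -1.0 for neuronal markers. It is 0.12 for the 4 channels of astrocytes and oligodendrocytes, of which Kcnk2 is at -0.48. Markers of oligodendrocytes (0.11) and astrocytes (0.14) have medians above 0. Markers of endothelium and mural cells (-0.40) and of choroid plexus (-0.51) also have medians below 0. Differences between the lists were not tested.

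The 5 channel genes that the rule leaves out and the partners of channels were read for comparison. Scn8a, the sodium channel of the mature node of Ranvier, had 167 in CD47 KO and 251 in WT (log2 ratio -0.59). Of the juxtaparanodal channels, Kcna1 had 4328 in CD47 KO and 3897 in WT (log2 ratio 0.15) and Kcna2 had 573 in CD47 KO and 585 in WT (-0.03). The pericyte channel gene Kcnj8 had a log2 ratio of 0.47, and Kcne2 was under the floor. Of 13 partner genes on the array 10 were measured and 8 were below 0, with a median of -0.25. Of all genes with both signals above the floor, as these 10 had, 52.6% were below 0. Dpp6, an auxiliary protein of Kcnd channels, had 416 in CD47 KO and 689.5 in WT (1.66-fold lower), and Dpp10 had a log2 ratio of -0.40. Fgf12 and Fgf14, which bind sodium channels, had -0.58 and -0.56, and the pacemaker channel Hcn2 had -0.28. Gem, a small GTPase that curbs calcium channels, was the sole one over 2-fold higher, with 459.6 in CD47 KO and 224 in WT (2.05-fold). Of the sodium pump, Atp1b1, its main neuronal β subunit, had 6688 in CD47 KO and 9937 in WT (1.49-fold lower), and Atp1b2 and Atp1b3 were at -0.05 and -0.04.

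Probe sets of one gene gave the only repeat measurement. Over 28 pairs from 20 channel genes, above the floor in both arrays, log2 ratios differed by a median of 0.26 and by a root mean square of 0.49, and over 11653 pairs of all genes by 0.20 and 0.36. Of 25 channel genes with 2 or more probe sets above the floor, 13 were below 0 by all of them, 4 above 0 by all, and 8 lay on both sides. By probe sets, 75 of 103 above the floor were below 0, 8 were over 2-fold lower and 0 over 2-fold higher. These counts by gene and by probe set include probe sets above the floor in 1 array, whose side of 0 was fixed by that array. Kcnmb2, below 0 by all, had only probe sets that passed through the WT array alone. The shares over all probe sets of the array were not taken, so these counts have no baseline. Of the 5 genes over 2-fold lower, 3 (Scn1a, Kcnc2 and Kcne4) rested on 1 probe set above the floor, Scn9a on probe sets that disagreed, and Scn2b was lower by 2 probe sets. Such pairs do not measure how mice or hybridisations vary.

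**Figure D5:**
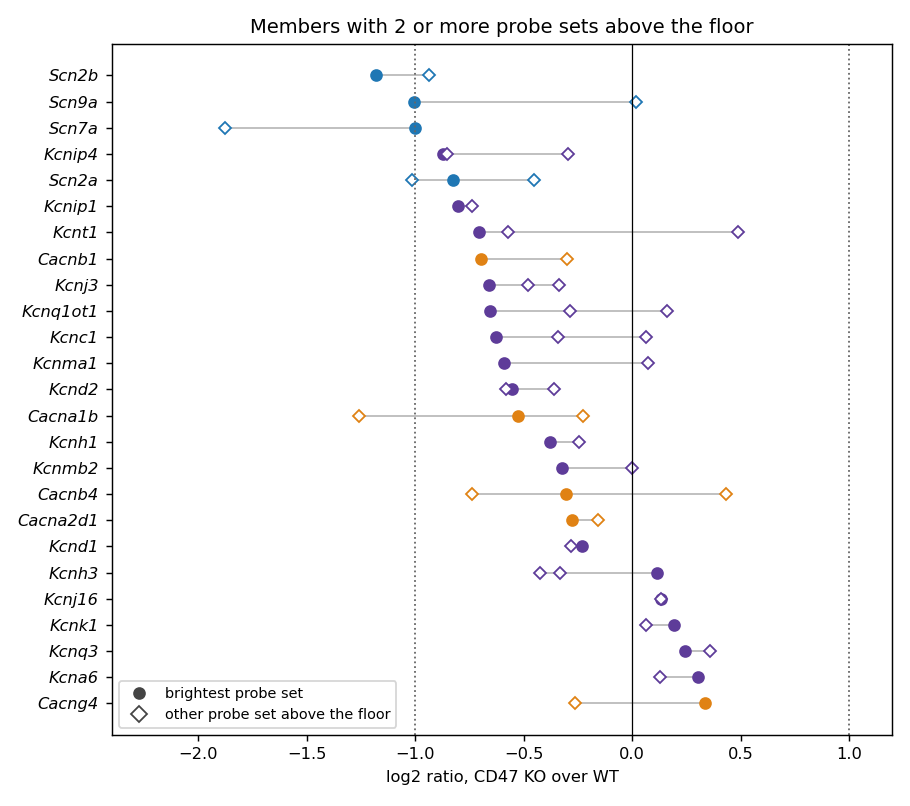
Log2 ratios, CD47 KO over WT, on the horizontal axis for each probe set above the floor for the 25 channel genes with 2 or more of them; filled circles are the brightest probe set, diamonds the others, and dotted lines mark 2-fold. Scn2b, Scn2a, Scn7a, Kcnip4 and Kcnip1 lie below 0 by every probe set, and Kcnt1, Cacnb4, Kcnma1 and Scn9a lie on both sides. Scn2a and Kcnip4 each include a probe set that passed the floor only in WT and so could only be below 0. The points of Kcnt1 and Kcnma1 above 0 passed only in CD47 KO and so could only be above 0.

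The other 46 genes were under the floor in both arrays and have no ratio here; 22 had the lower value in CD47 KO and 24 in WT. Among them are all 9 electrically silent potassium subunits on the array (Kcnf1, Kcng1, Kcng2, Kcng4, Kcns1, Kcns2, Kcns3, Kcnv1 and Kcnv2), the muscle genes Cacna1s and Cacng1, the L-type pore gene Cacna1c and the KChIP gene Kcnip2. MAS5 values of this size do not show whether the transcripts are absent.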

How the data were processed

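Pooled RNA of white matter was hybridised to 1 Affymetrix array per genotype. The deposited values are MAS5 signal intensities per probe set, which the authors made with Expression Console; sources used here do not state its version. Each array had been scaled to a trimmed mean of 500.003 (2% left out at each end), and its median was 105 for CD47 KO and 107.8 for WT. The table held 45101 probe sets, 64 of them controls, which were left out of gene values. As floor the 50th percentile of both arrays' signals was taken. Probe sets with several symbols (932) or none (9160) were left out, and each gene was read from its probe set with the highest mean log2 signal. Names came from the platform annotation; all 114 member symbols were found by gene ID in a RefSeq table of assembly GRCm38.p6, used for names and gene order. Scripts ran in Python 3.11.15 with pandas 2.3.3 and statsmodels 0.14.6. They recovered known folds over 2-fold that were put into bright genes of simulated data. Smaller folds and changes in dim genes were not simulated. The members and lists were chosen with earlier results of these data known. Every measured member could be named; both signals were given for members over 1.5-fold, the 10 with the brightest probe sets, the extremes of each class and the cell type lists. Brightness chose probe sets and does not rank transcripts. The alternatives were floors at the 40th and 60th percentile, no floor, quantile normalisation, median centring, removal of a lowess trend, and the median over probe sets. A further one left out probe sets with the suffix _a_at, _s_at or _x_at. Protein sequences, meant for a comparison of pore motifs, were not used here.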

Additional observations from a re-analysis of the deposited data

How the results depend on the processing

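The count of members over 2-fold lower was 5 and ranged from 4 to 7 under 7 of the alternatives. With the floor at the 60th percentile it was 2 (Scn2b and Kcne4), as fewer genes are measured and bounds shorten. The count over 2-fold higher was 0 under all of them. The median of the measured members lay between -0.40 and -0.31, and the share below 0 between 67.4% and 76.5%, while the median of all genes lay between -0.02 and 0.02. For the classes, the median of calcium channel pore subunits was -0.32 with the higher floor. It was -0.24 without probe sets with the suffix _a_at, _s_at or _x_at. The median of inward rectifiers was 0.020 with the higher floor, 0.022 after quantile normalisation, 0.058 after median centring and 0.013 after removal of the lowess trend. That of tandem-pore channels was -0.13 without probe sets with these suffixes. Both lie near 0, and the cause was not tested. Scn9a was at 0.016 without its probe set with the suffix _x_at. The sign differed from the reported one in 4 of 518 values of single genes: those of Scn9a, Kcnma1, Kcnh3 (-0.33 by the median over probe sets) and Kcnj6. Most of these values could hardly differ in sign, because a floor cannot reverse a ratio and the normalisations shifted ratios little. The 518 values are therefore no measure of robustness. Of 25 channel genes with 2 or more probe sets above the floor, 8 had them on both sides of 0. No paired analysis was possible because each genotype has 1 array. MAS5 signals near the floor limit the ratios of 12 members that were under 1.5 times the floor in both arrays.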

Other observations

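The symbols chosen include RNAs that encode no channel subunit. Kcnq1ot1, a long antisense RNA from the imprinted locus of Kcnq1, had 224 in CD47 KO and 353 in WT by its brightest probe set (1.57-fold lower), and log2 ratios of -0.28 and 0.16 by its other probe sets above the floor. Kcnmb4os1 and Kcnmb4os2, opposite-strand RNAs of Kcnmb4, were under the floor in both arrays. Without these RNAs the median of the measured members was -0.35 over 67 genes, of which 49 were below 0.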
